A study of Strongylocentrotus purpuratus with 6 samples.

Results

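The loci of 2 embryonic regulatory genes, Ese and Dri, were described by the RNA polymerase II (Pol II) peaks that lie on them in 20 h sea urchin embryos (Strongylocentrotus purpuratus, hatching blastula stage). Ese belongs to the ETS family of transcription factors. Dri is Deadringer, a transcription factor with an ARID DNA-binding domain, known in sea urchin embryos for roles in the skeletogenic mesenchyme and in the oral ectoderm. For each gene the cis-regulatory modules (CRMs), genomic regions that had been chosen for reporter tests, were taken by name and position from the study's CRM table, and the locus was set from the first to the last base of these CRMs plus 2 kb on each side. The peaks that overlap a locus by 1 bp or more are the members. There were 61 of them among the 554846 peaks of the list, 31 at Ese and 30 at Dri, with 10 Ese CRMs and 9 Dri CRMs of the 389 CRMs of the table.

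Pol II was mapped by ChIP-seq, which sequences fragments of sonicated, formaldehyde-fixed chromatin pulled down by an antibody, here 8WG16 against the YSPTSPS repeat of the Pol II C-terminal domain. There were 3 Pol II ChIP samples and 3 input samples of whole embryos grown at 15 degrees Celsius, with no treatment or genotype contrast, and each ChIP sample shares its extract number with an input. The replicates had been combined before peaks were called against the input, so 1 list of positions stands for all of them. It holds no score, read count or p-value, the depth behind a peak is unknown, no spread between replicates can be computed, and no test was run: every difference below is a description of this list. In whole embryos, Pol II in fewer cells and less Pol II per cell cannot be told apart.

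As background, Pol II binds promoters, can wait just past the start site, and then travels through the gene, so ChIP-seq signal of Pol II collects both at start sites and along the bodies of genes being transcribed. Enhancers, many of them in introns or upstream of the gene, are often bound by Pol II as well. Genes that specify cell types in the embryo usually carry several such elements, each used in its own territory. A long, unbroken peak and a row of short ones can therefore cover the same number of bases while describing different distributions of the enzyme.

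Peaks covered similar shares of the 2 loci but were laid out differently. The Ese locus (Scaffold1386:71484-130963, 59480 bp, genome version 3.1) had 30070 bp under peaks, or 50.6% of its bases. The Dri locus (Scaffold48:117813-147105, 29293 bp) had 13549 bp under peaks, or 46.3%. The difference of 4.30 percentage points between Ese and Dri turned to -1.58 when no flank was added to the CRM span, so the order of the genes rests on where the locus ends. The number of peaks per 10 kb was 5.21 at Ese and 10.2 at Dri. Median peak length was 459 bp at Ese (quartiles 194 and 627 bp) and 258 bp at Dri (145 and 498 bp), with a median of 217 bp over the whole list. The median gap from one peak to the next was 564 bp at Ese and 270 bp at Dri. It was 557 bp over the whole list, and the median gaps of the other 35 loci had a median of 317 bp. Relative to Dri, Ese thus had fewer peaks per length, longer and farther apart. Against the whole list, however, Ese gaps were near the median and the median Dri peak was not short.

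**Figure D1:**
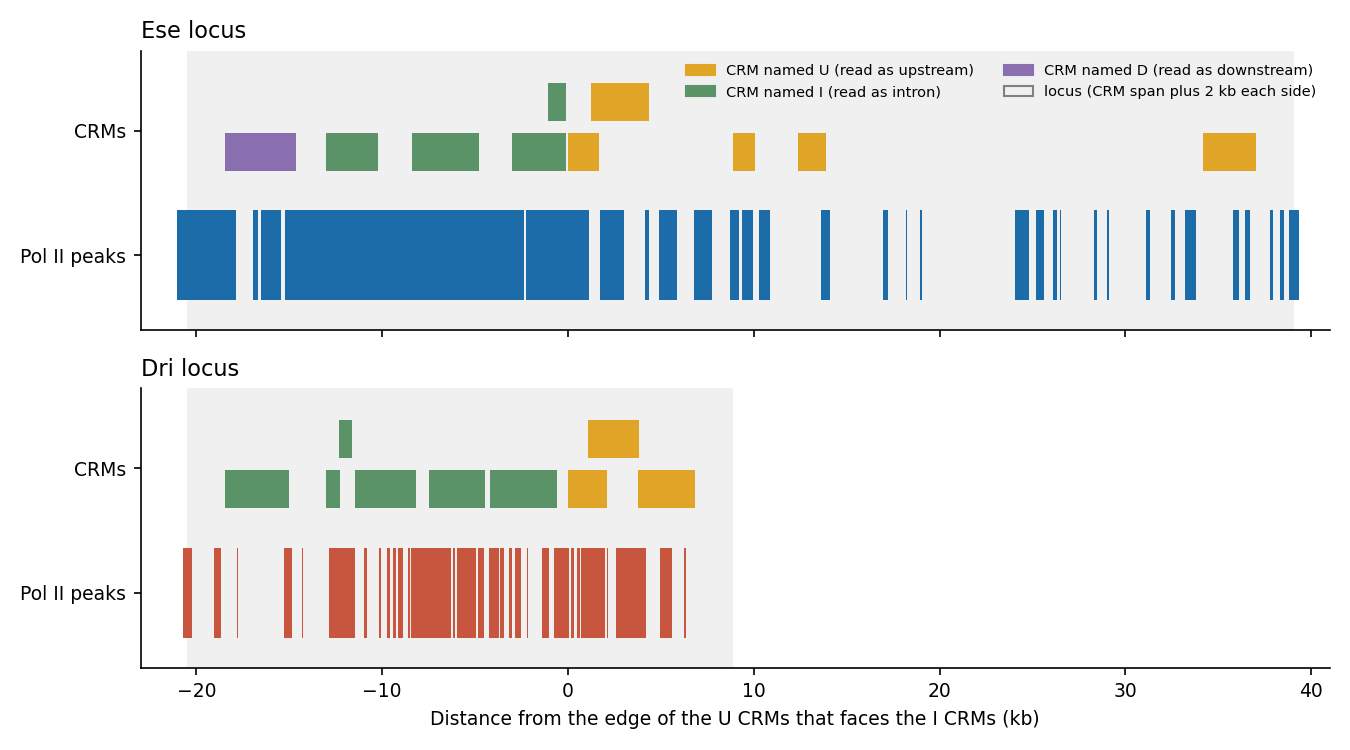
Pol II peaks (filled bars) and CRMs (boxes above them, stacked where they overlap) along the Ese and Dri loci, both on 1 scale, in kb from the edge of the upstream CRMs that faces the intronic ones. At Ese, 1 peak of 12829 bp fills most of the intronic side and only scattered peaks lie more than 20 kb upstream, whereas the longest of the 30 Dri peaks is 2139 bp.

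A single long peak set the picture at Ese. It ran from Scaffold1386:76746-89574 and spanned 12829 bp, which is 42.7% of all Ese bases under peaks. Only 0.0955% of the peaks of the list are longer than 6000 bp, and this was the 1 such peak at Ese, against 0 at Dri. Peaks of that length were common at loci built by the same rule, since 17 of the other 35 held at least 1. The next peak, at Scaffold1386:89698-93079, was 3382 bp long and began 123 bp after the first one ended. A peak of 3192 bp at Scaffold1386:70914-74105 crossed the low end of the locus, with 2622 bp inside it. The remaining long ones were 1299 bp (Scaffold1386:93670-94968) and 975 bp (Scaffold1386:96867-97841). These 5 peaks held 70.2% of the Ese bases under peaks, and the other 26 were scattered over the rest of the locus. The last of them, 533 bp at Scaffold1386:130761-131293, crossed the high end with 203 bp inside.

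The longest Dri peak was 2139 bp, at Scaffold48:129845-131983, and held 15.8% of the Dri bases under peaks. It was followed in length by peaks of 1571 bp (Scaffold48:140891-142461), 1406 bp (Scaffold48:125415-126820), 1294 bp (Scaffold48:138958-140251) and 990 bp (Scaffold48:132314-133303). Together these 5 held 54.6% of the bases under Dri peaks. They were spread over the intronic and upstream CRMs, with shorter peaks between them. At the low end a peak of 485 bp (Scaffold48:117557-118041) crossed the limit with 229 bp inside, and the last peak before the high end was 110 bp long (Scaffold48:144515-144624).

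Peaks of 1000 bp or more make up 4.71% of the list, and there were 4 at each gene, which held 67.0% of the covered bases at Ese and 47.3% at Dri. Such peaks hold 25.8% of the covered bases of the whole list. Over the other 35 loci their share had a median of 58.4%, from 0 to 94.3%, between the values of Ese and Dri. At the short end, 3.87% of all peaks are shorter than a 50 bp read. None of the 31 Ese peaks was, the shortest having 62 bp, and 3 of the 30 Dri peaks were, with 11, 43 and 48 bp. Gaps under 100 bp make up 11.2% of all gaps in the list, and there was 1 among the 30 gaps at Ese and 5 among the 29 at Dri. Joining peaks over gaps of up to 200 bp left 26 peaks at Ese, the longest of 16334 bp, and 18 at Dri, the longest of 4079 bp. The count fell further at Dri, so part of the contrast in peaks per length rests on how peaks are split.

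The longest stretch without a peak was 5028 bp at Ese (Scaffold1386:110988-116015) and 2510 bp at Dri (Scaffold48:120500-123009). The Ese stretch lies between the upstream CRMs Ese_Ur_04 and Ese_Ur_06. The Dri stretch lies within Dri_Ir_06. Whether unknown bases of the assembly fall in either was not examined, since no genome sequence of this build was used here.

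All 10 Ese CRMs and all 9 Dri CRMs overlapped a peak, as did 98.5% of the 389 CRMs, so the presence of a peak sets neither gene apart. CRM names carry a letter, U, I or D, which was read as upstream, intron or downstream from the order of the CRMs along the scaffold. In both genes the I CRMs lie at lower and the U CRMs at higher coordinates. The share of a CRM under peaks differed widely within each gene: it was 69.2 ± 32.2% at Ese (mean ± SD over 10 CRMs) and 62.4 ± 29.8% at Dri (9 CRMs), and over all 389 CRMs it was 66.7 ± 28.5%. These SDs are over genomic regions, some of which overlap, and not over replicates.

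The 4 intronic CRMs of Ese were covered almost end to end. Such cover was not particular to Ese. With overlapping CRMs merged, intronic CRMs were covered over 100% at FoxJ1, IrxA, Myc, Nfe2, Nk22, SoxB1 and Z13, and over 12.2% at Hnf1, the lowest gene. Ese_Ir_03 (Scaffold1386:78950-81749) and Ese_Ir_02 (Scaffold1386:83574-87185) were under the 12829 bp peak over 100% of their length. Ese_Ir_01-2 (Scaffold1386:90886-91858) was covered over 100% by the 3382 bp peak. Ese_Ir_01-3 (Scaffold1386:88934-91858), which contains Ese_Ir_01-2, had 95.8% of its bases under the 2 peaks, the break between them falling inside it. In all, 3 of the 10 Ese CRMs lay wholly under 1 peak, where 20.1% of all CRMs do. The 12829 bp peak touched 4 CRMs, so their values are not independent of each other.

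Outside the introns Ese was covered in part. The downstream CRM Ese_Dr_01 (Scaffold1386:73483-77319) had 66.1% of its bases under 5 peaks. Going upstream, Ese_Ur_01-3 (Scaffold1386:91954-93623) had 67.4% under 1 peak, Ese_Ur_02 (Scaffold1386:93193-96342) had 49.0% under 2, and Ese_Ur_03-2 (Scaffold1386:100816-102017) had 78.2% under 2. The 2 farthest CRMs were the lowest of the gene, with 15.6% for Ese_Ur_04 (Scaffold1386:104315-105830) and 20.0% for Ese_Ur_06 (Scaffold1386:126140-128963). The upstream values did not fall evenly with distance, since Ese_Ur_03-2 was above both CRMs nearer to the introns.

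At Dri the intronic CRMs ranged over nearly the whole scale. Dri_Ir_06 (Scaffold48:119812-123277), at the low end, had 8.05% of its bases under 2 peaks of 11 and 395 bp, which is the lowest value of all CRMs of the 2 genes. Next to it, Dri_Ir_04-4 (Scaffold48:125268-126010) had 80.3% and Dri_Ir_04-3 (Scaffold48:125964-126655) had 100%, both under the same peak of 1406 bp. Dri_Ir_03 (Scaffold48:126793-130099) was crossed by 8 peaks and still covered over only 40.6%. Dri_Ir_02 (Scaffold48:130825-133801), which holds the greater part of the 2139 bp peak, had 86.8% under 4 peaks. Dri_Ir_01 (Scaffold48:134103-137672) had 49.7% under 7 short peaks. No more than 8 peaks overlapped any of the 389 CRMs, so Dri_Ir_03 reached the top of that range.

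The 3 upstream CRMs of Dri overlap their neighbours. Dri_Ur_02-2 (Scaffold48:138277-140402) had 80.6% of its bases under 5 peaks and Dri_Ur_01 (Scaffold48:139365-142076) had 78.0% under 3. Both share the peak of 1294 bp and one of 43 bp. Dri_Ur_03 (Scaffold48:142048-145105), farthest from the introns, had 37.7% under 3 peaks. Of the Dri CRMs, 1 lay wholly under 1 peak.

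**Figure D2:**
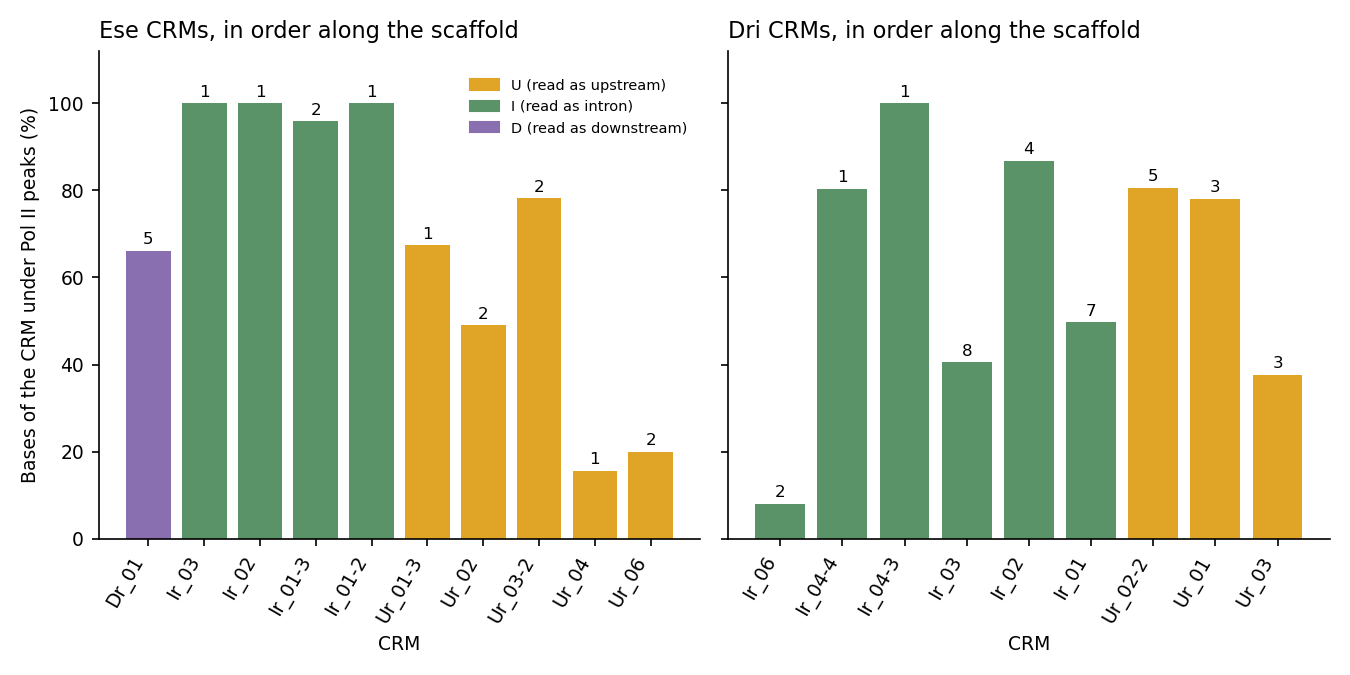
Share of each CRM's bases under Pol II peaks (%), for the 10 Ese CRMs and the 9 Dri CRMs in order along the scaffold, coloured by the letter in the CRM name, with the number of overlapping peaks above each bar. The intronic CRMs of Ese sit between 95.8 and 100% under 1 or 2 peaks each, and those of Dri between 8.05 and 100% under 1 to 8 peaks.

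Counted by CRM, 7 of 10 at Ese and 5 of 9 at Dri had 50% or more of their bases under peaks, where 67.9% of all CRMs do. The median CRM was covered over 72.8% at Ese and 78.0% at Dri, and 68.8% over all 389 CRMs. Counted by base, with overlapping CRMs merged, Ese was above Dri: 69.9% of 23097 CRM bases at Ese and 52.3% of 21531 at Dri. The mean over CRMs was also higher at Ese, 69.2% against 62.4% at Dri, so of these measures only the median put Dri first. The Dri median was the value of Dri_Ur_01, and the next lower Dri CRM, Dri_Ir_01, had 49.7%. Bases of the locus outside any CRM were covered over 38.2% at Ese (36383 bp) and 29.6% at Dri (7762 bp), below the CRM bases in both genes.

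Most Dri peaks touched a CRM and most Ese peaks did not. Of the 31 Ese peaks, 18 touched no CRM, 11 touched 1 and 2 touched several. Of the 30 Dri peaks, 3 touched no CRM, 21 touched 1 and 6 touched several. CRMs took up 23097 of the 59480 bp at Ese and 21531 of the 29293 bp at Dri. A peak at Dri thus had more CRM sequence to touch, and the counts say little about the peaks themselves. All 18 Ese peaks without a CRM lie upstream of Ese_Ur_02, in the space between the thinly placed upstream CRMs or beyond the last of them.

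Intronic and upstream sequence differed in opposite directions in the 2 genes. With overlapping CRMs merged, 98.7% of the intronic bases and 44.4% of the upstream bases of Ese were under peaks, a difference of 54.3 percentage points. For Dri the shares were 49.1% of the intronic bases and 59.1% of the upstream bases, a difference of -10.1 points. Among the 32 genes of the table with CRMs of both letters the difference was positive in 26. Ese ranked 4 from the top and Dri 29, and the other 30 genes had a median difference of 21.9 points, from -17.4 to 63.7. The upstream CRMs reach over 37009 bp at Ese and 6828 bp at Dri, so the 2 upstream values do not describe the same range of distances.

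Taken at matched distances, in steps of 5 kb from the edge of the upstream CRMs that faces the introns, the genes also differed. On the intronic side, Ese had 97.5%, 100% and 100% of bases under peaks in the first 15 kb, moving away from the edge, and Dri had 55.3%, 79.7% and 37.7%. The medians of the other 30 genes in the same steps were 86.5%, 72.2% and 65.4%. In the first 5 kb upstream the share was 55.1% at Ese and 66.6% at Dri, beside a median of 67.3% over 28 other genes. From 5 to 10 kb upstream it was 58.1% at Ese and 32.8% at Dri, beside 48.2% over 27. Farther upstream Ese had 20.9%, 7.74% and 15.0% in successive steps up to 25 kb, below the medians of 41.1%, 32.5% and 21.6%. Dri in those steps had 94.6%, 100% and 96.7%, above the highest of the other genes, which were 74.2%, 89.9% and 75.0%.

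**Figure D3:**
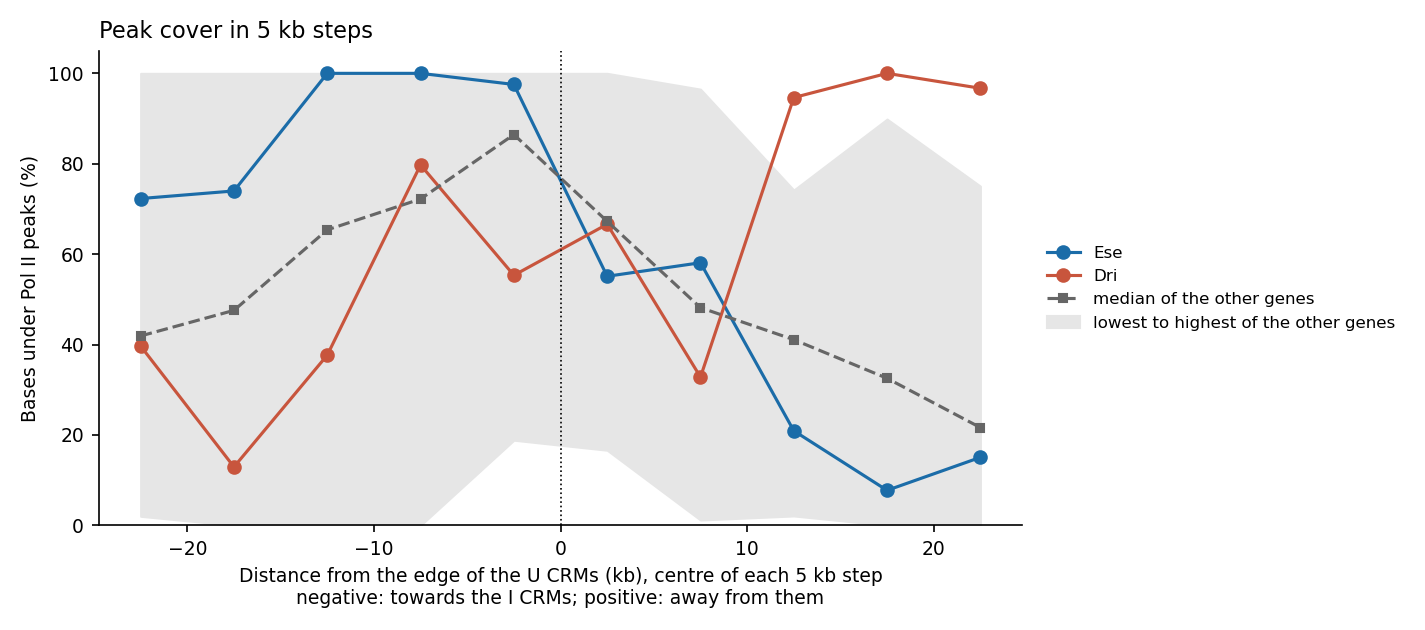
Share of bases under Pol II peaks (%) in 5 kb steps on both sides of the edge of the upstream CRMs, for Ese, Dri and the other genes with intronic and upstream CRMs (dashed line, median of 26 to 30 genes; grey band, lowest to highest). Ese is above the median in all steps on the intronic side and below it from 10 to 25 kb upstream, and Dri is above the band from 10 to 25 kb upstream.

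The cover upstream of Dri came from sequence beyond its CRMs. A peak of 11779 bp at Scaffold48:148571-160349 began 3465 bp past the end of the last Dri CRM and 1465 bp past the end of the locus. It is not among the 30 members, but with a flank of 5 kb it would be, and it would then be the longest Dri peak. The first 10 kb past the high end of the Dri locus were covered over 94.9%, a higher share than in all 64 such windows, on either side, beside the other 35 loci (median 29.6%, highest 79.5%; windows past a scaffold's ends were left out). The next 10 kb were covered over 87.1% and the following 30 kb over 56.4%. On the low side of Dri, past its intronic CRMs, the shares were 19.5%, 0% and 15.6% in the same 3 windows. Dri has no downstream CRM, so whether these windows lie outside the gene is unknown. Which gene, if any, lies under the long neighbouring peak was not examined, because no annotation of genome version 3.1 was used here.

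Around Ese the cover fell with distance on the low side, and the high side was thinly covered throughout. On the low side, past the downstream CRM, it was 61.8% in the first 10 kb, 37.3% in the next 10 kb and 17.7% in the following 30 kb. On the high side it was 19.6%, 6.15% and 11.7%. The windows beside the other loci had medians of 29.6%, 25.0% and 24.3% at these distances. Over the whole scaffold up to its last peak, the locus included, 23.1% of Scaffold1386 and 19.6% of Scaffold48 were under peaks. Both loci were thus covered over more than 2 times the share of their scaffold. Beside this, the other 35 loci had median shares of 58.8% for the locus and 29.6% for the scaffold.

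Set against the other 35 loci built by the same rule, both genes were below the median covered share. Ese ranked 22 and Dri 28 of 37, with a median of 58.8% over the other loci, from 13.9% at Ecr, a nuclear receptor gene, to 85.5% at Chordin, which encodes an antagonist of BMP signals. By length of the longest peak Ese ranked 6 and Dri 30, beside a median of 5330 bp over the other loci. By peaks per 10 kb Ese ranked 29 and Dri 8, beside a median of 8.14.

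The loci nearest to Ese in covered share were Gsc (49.9%), Prox (49.6%) and Unc41 (48.1%). Their longest peaks were 6297, 1669 and 3650 bp, all shorter than the 12829 bp of Ese, and they had 9.59, 11.2 and 11.5 peaks per 10 kb, all above the 5.21 of Ese. Those nearest to Dri were FoxG (47.1%), Univin (48.0%) and Unc41 (48.1%), with longest peaks of 6047, 3881 and 3650 bp. All 3 were above the 2139 bp of Dri. Their peaks per 10 kb were 10.05, 6.74 and 11.5, on both sides of the 10.2 of Dri.

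**Figure D4:**
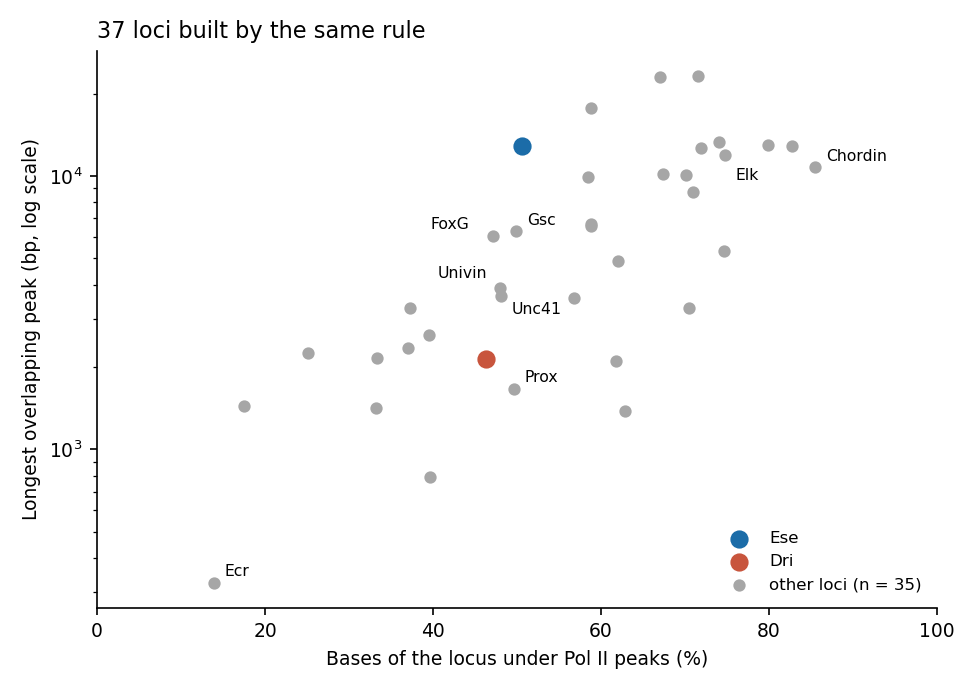
Bases under Pol II peaks as a share of the locus (%, horizontal axis) and length of the longest overlapping peak (bp, log scale, vertical axis) for the 37 loci; Ese and Dri are coloured and 8 other loci named. Ese (50.6%, 12829 bp) stands above the loci with a similar covered share, and Dri (46.3%, 2139 bp) in the lower part of them.

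Elk, the other ETS family gene of the table, was covered over 74.8% of its locus, had 6.64 peaks per 10 kb and a longest peak of 11952 bp, so it had the long peak seen at Ese with a higher covered share. Dri is placed in the gene network of the oral ectoderm, the side of the embryo where the mouth forms. Of 6 genes of that network in the table (Gsc, Not, Chordin, Bmp24, Lim1 and FoxG), 6 had a higher covered share than Dri (median 66.1%, beside 58.8% over all 37 loci), as did 27 of the 36 loci other than Dri. A longer longest peak was found at 6 of the 6 (median 6172 bp, beside 5330 bp over all loci) and at 29 of the 36. More peaks per 10 kb than at Dri were found at 1 of the 6 (median 8.89, beside 8.14 over all loci) and at 7 of the 36. Most loci thus lay on the same side of Dri as these 6 genes.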

How the data were processed

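The data used here were 1 deposited list of peak positions (scaffold, start, end) of 3 Pol II ChIP and 3 input samples. No other column was used. Per the paper, the deposit also holds Pol II ChIP-seq profiles, which were not used. Per the study's methods, the authors combined replicates, aligned 50 bp reads to genome version 3.1 with Bowtie 2 and called peaks with MACS 1.4.2 at default settings; the submitters' processing notes name Bowtie 1.0.1 and CASAVA 1.8. Starts in the list include 0 and were read as counted from 0; positions are printed counted from 1. From the CRM table, names and positions were used as listed, with length as end minus start; reporter and signal values were not used. RefSeq holds the symbol dri and was used for that name only.

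Bases under peaks, peak lengths and gaps were counted with Python 3.11.15, numpy 2.4.6 and pandas 2.3.3, and the counting gave 0 errors in 200 simulated windows. All CRMs of both genes, the 5 longest peaks, the end peaks, the longest free stretch, the 3 nearest loci and the extreme loci were named. Members, lists and measures were chosen with earlier results of these data known; the 5 kb steps and the account of the long peak beside Dri were added after the values were seen.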

Additional observations from a re-analysis of the deposited data

How the results depend on the processing

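No paired analysis was possible because peaks were called on combined samples only, and no fit without 1 replicate was run either. The list has no score, so peak length stood in for a stricter threshold. Of 69 values recomputed under 7 alternatives for 11 results, 48 stayed within set limits, 20 moved and 1 changed sign. The limits were 1.5 times for counts, 1 bp for the longest peak and the SD over CRMs for median CRM cover. For covered shares the limit was the 95% binomial interval over bases, an interval for counting error that treats bases as independent. The SD limit was wide (32.2 points at Ese, 29.8 at Dri), and no CRM result moved. An overlap of at least 50 bp and starts counted from 1 gave 11 unchanged values each. Both covered shares and their difference moved or changed sign under every other setting.

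With peaks of at least 150 bp the covered share was 49.7% at Ese and 43.8% at Dri, a difference of 5.82 points. With peaks of at least 300 bp, 16 peaks at Ese and 14 at Dri were left, covering 45.9% and 38.7%, a difference of 7.21 points. Without a flank the shares were 49.6% at Ese and 51.2% at Dri, and the difference turned to -1.58, because the Dri flanks are thinly covered. With a flank of 5 kb they were 51.4% at Ese and 49.4% at Dri, a difference of 2.06 points, and the longest Dri peak was 11779 bp, which lies outside the narrower locus. Joining peaks over gaps of up to 200 bp gave 51.7% at Ese and 50.5% at Dri, a difference of 1.11 points. It left 26 peaks at Ese and 18 at Dri, with longest peaks of 16334 bp at Ese and 4079 bp at Dri. An overlap of at least 50 bp, and starts counted from 1 (chosen after seeing the data), moved no result. Sequence of the peaks was not analysed here, and the unknown depth behind each peak limits every value to presence and length of peaks.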
